A study of Mus musculus with 24 samples.

Results

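The genes described here make, break down or respond to cyclic AMP in MIN6 cells, a line from a mouse insulinoma that secretes insulin and serves as a β-cell model. They were chosen by symbol alone, as every gene in the deposited count table whose name is that of an adenylyl cyclase (Adcy), a cyclic nucleotide phosphodiesterase (Pde), a regulatory or catalytic subunit of protein kinase A (Prkar, Prkac), a PKA inhibitor (Pki), an A-kinase anchoring protein (Akap) or a Rap guanine nucleotide exchange factor (Rapgef). The rule took 46 of the 12310 genes in the table, namely 5 cyclases, 16 phosphodiesterases, 2 other genes with a Pde symbol (Pde4dip and Pde6d), 2 catalytic and 4 regulatory PKA subunits, 2 PKA inhibitors, 10 anchoring proteins and 5 Rap exchange factors. All 46 passed the filter on low counts. Adcy3, Rapgef3, Pkib and Akap5 were not analysed here.

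RNA was sequenced from wild-type MIN6 cells below passage 25, grown for 24 h in 5.6 mM glucose and then either exposed to verapamil (50 µM; 24 h), a blocker of L-type calcium channels, or left untreated (control) at the same glucose concentration. Each group had 12 libraries from this single clonal tumor line. The sources describe either 4 experiment sets of 3 replicates or 12 separate experiments. The first digit of the label description was taken as the experiment set, which no source states outright, and 4 libraries (columns C11, C12, V11 and V12) carry no usable number and fall to set 4 by elimination. No source ties single libraries to separate cultures, so the p-values speak only of the scatter among these libraries, part of which may be technical.

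Cyclic AMP is a second messenger that amplifies glucose-stimulated insulin secretion in β-cells, where incretin hormones such as GLP-1 raise it through Gs-coupled receptors. Cyclases make it from ATP, some of them stimulated and some inhibited by calcium, and phosphodiesterases hydrolyze it. It acts by releasing the catalytic subunits of PKA from their regulatory subunits, which anchoring proteins hold at defined sites in the cell, and by activating the exchange factor Epac2 (Rapgef4), which primes insulin granules for release. Verapamil limits calcium entry, and calcium bears on this network directly through the calcium-regulated cyclases and the calmodulin-activated phosphodiesterases of family 1.

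Library depth ranged from 12590476 to 44806556 counts. In 9 of the 12 verapamil libraries, the deviation of a gene from the control mean followed the GC content of its transcript more closely than in any control library. In the other 3 the correlation lay within the control range. Pearson's r across genes, which are not independent replicates, ran from -0.18 to 0.16 for the controls and from 0.036 to 0.63 for the verapamil libraries, with means of 0.19, 0.54, 0.55 and 0.16 in verapamil sets 1, 2, 3 and 4. The verapamil library in column V11 stood apart by its trend with transcript length (r = -0.54) and held the lowest verapamil value of 19 of the 46 genes. Of the β-cell markers, 8 of 10 were in the table, Ins1, Ins2, Iapp, Pdx1, Nkx6-1, Mafa, Slc2a2 and Slc30a8, and their summed level was 2865 to 3903 CPM in control and 2565 to 3406 CPM with verapamil. Within that sum 4 genes fell and 1 rose: Ins2 (log2 fold change -1.05), Slc2a2 (-0.84) and Slc30a8 (-0.88) had all 12 verapamil libraries below every control, Iapp, at 2.19 CPM in control, had 9 (-0.85), and Mafa (0.85) had all 12 above. The α-cell marker Gcg was also present (186 CPM in control and 260.4 CPM with verapamil). The remaining markers of other cell types in the table, Sox9 and Pdgfra, were at 2.56 and 1.05 CPM in control.

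With verapamil, 14 of the 46 genes were higher and 16 were lower at an adjusted p under 0.05 (edgeR's quasi-likelihood test, Benjamini-Hochberg adjustment over 12306 genes), and 16 did not pass. These are 30.4% and 34.8% of the genes, where 31.2% of all genes tested were higher and 31.6% were lower, so the shares lie near the background, as do the 30 calls in either direction (background 62.8%). The median log2 fold change was -0.038, against -0.0033 over all genes. In bulk RNA, fewer cells expressing a gene and less of its RNA per cell cannot be told apart. The phosphodiesterases held 7 of the 14 increases, with 3 decreases. The anchoring proteins and Rap exchange factors held 10 of the 16 decreases, with 2 increases. Of the 46, 4 had control and verapamil libraries without overlap, Pde4b and Prkar1b upward (background 4.95% of genes) and Prkacb and Rapgef4 downward (background 5.18%).

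The decreases depended on how the GC and length trends were handled. When the trend of each library with GC content and with transcript length entered the edgeR model as covariates, 10 of the 14 increases were still called, but only 2 of the 16 decreases, those of Prkacb and Pde5a, and 7 of the 16 changed sign. In all, 17 of the 46 genes were higher and 4 lower in that fit, where 21.1% of all genes were higher and 14.1% lower. These covariates overlap with the treatment (variance inflation of the treatment term 1.98), so the trends and the treatment cannot be fully told apart in that fit. When each library was instead corrected for its GC and length trend, 12 of the 14 increases and 11 of the 16 decreases were still called.

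**Figure D1:**
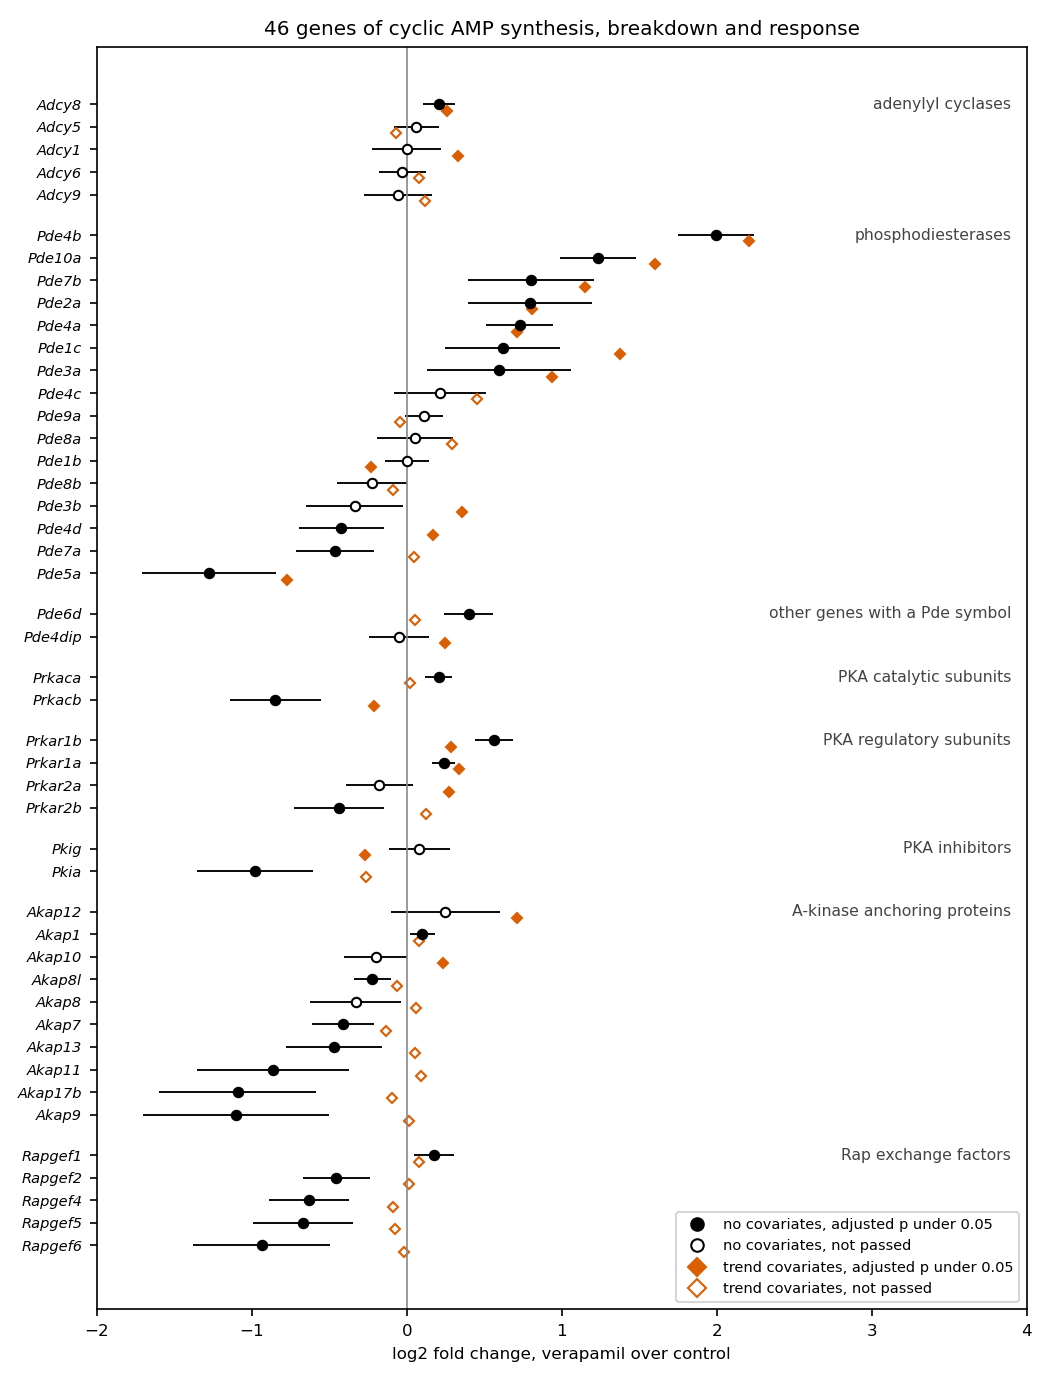
Log2 fold change (verapamil over control) of all 46 genes by family, by the fit without covariates (black circles, with bars for the 95% interval) and by the fit with the GC and length trends as covariates (orange diamonds), filled where the adjusted p is under 0.05. Pde4b (2.00) and Pde10a (1.24) lie farthest to the right in both fits, while the decreases of most anchoring proteins and Rap exchange factors move to near 0 with the covariates.

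Among the cyclases, 1 of 5 rose and none fell (backgrounds 31.2% and 31.6% of all genes), with none lower at an unadjusted p under 0.05 in edgeR or by DESeq2 either. Adcy8, stimulated by calcium and calmodulin, ranged from 68.9 to 92.2 CPM (median 82.0) in the control libraries and from 71.9 to 104 CPM (median 94.4) in the verapamil libraries. Verapamil values lay above every control in 9 of 12 libraries, and the mean went from 80.5 ± 6.89 CPM (SD, n = 12) in control to 93.1 ± 7.52 CPM (SD, n = 12) with verapamil (log2 fold change 0.21 ± 0.053 (SE), edgeR adjusted p = 0.00166). The difference was similar in the 4 experiment sets, at 0.17, 0.23, 0.26 and 0.18 on the log2 scale, and was 0.26 with the trend covariates (edgeR adjusted p = 6.72e-04). No other cyclase passed the test. Adcy6 (log2 fold change -0.029 ± 0.077 (SE), edgeR adjusted p = 0.758) and Adcy5 (log2 fold change 0.062 ± 0.073 (SE), edgeR adjusted p = 0.467), both inhibited by calcium, had 95% intervals of -0.18 to 0.12 and -0.081 to 0.21. Adcy9, a broadly expressed cyclase, was at 55.1 to 53.0 CPM on average (log2 fold change -0.056 ± 0.11 (SE), edgeR adjusted p = 0.675), but library V11 lay at 18.8 CPM while every other library was at or above 51.6 CPM. Adcy1, also calmodulin-stimulated, had a log2 fold change of -0.00071 (edgeR adjusted p = 0.996), which became 0.33 with the trend covariates (edgeR adjusted p = 2.38e-04). Per kilobase of exon, Adcy9, Adcy8 and Adcy6 were the most abundant cyclases in control, with 31.8%, 29.6% and 26.7% of the summed level of the 5 genes. Their order of abundance changed, since Adcy8 went from 29.6% ± 2.1 (SD, n = 12) to 33.6% ± 3.49 (SD, n = 12) of that sum and Adcy9 from 31.8% ± 1.06 (SD, n = 12) to 29.2% ± 3.60 (SD, n = 12). The sum itself was 33.4 ± 1.15 (SD, n = 12) to 34.4 ± 4.77 (SD, n = 12) CPM per kilobase.

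The phosphodiesterases contained the largest increases. Pde4b, a cyclic AMP-specific enzyme of the rolipram-sensitive family, lay from 0.943 to 2.66 CPM (median 1.97) in the control libraries and from 5.14 to 9.78 CPM (median 8.13) in the verapamil libraries. No verapamil library overlapped a control library, and the mean went from 1.98 ± 0.442 CPM (SD, n = 12) in control to 7.92 ± 1.36 CPM (SD, n = 12) with verapamil, a 3.99-fold change (log2 fold change 2.00 ± 0.13 (SE), edgeR adjusted p = 2.33e-12). The log2 difference was 1.98, 1.83, 2.07 and 2.03 in experiment sets 1 to 4. It was 2.00 when the counts were summed per set and compared as 4 sums against 4 (edgeR adjusted p = 3.81e-05). Pde4b is at chr4:102087543-102607259, plus strand in GRCm38, and its counts were 21 or more in every control library.

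Pde10a, which hydrolyzes both cyclic AMP and cyclic GMP, was the more abundant of the strongly changed enzymes and ranged from 25.4 to 38.8 CPM (median 31.7) in the control libraries and from 28.4 to 92.4 CPM (median 81.2) in the verapamil libraries. The 11 verapamil libraries other than V11 lay between 61.9 and 92.4 CPM, above every control, while V11 lay within the control range. The mean went from 32.1 ± 3.86 CPM (SD, n = 12) in control to 75.7 ± 17.5 CPM (SD, n = 12) with verapamil (log2 fold change 1.24 ± 0.12 (SE), edgeR adjusted p = 1.49e-08). By set the log2 difference was 1.56, 1.28, 1.13 and 0.80, and the difference of the effect between sets did not pass the test (edgeR interaction, adjusted p = 0.597).

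Pde4a (log2 fold change 0.73 ± 0.11 (SE), edgeR adjusted p = 7.18e-06), of the same family as Pde4b, Pde2a (log2 fold change 0.80 ± 0.20 (SE), edgeR adjusted p = 0.00174), which cyclic GMP activates, and Pde7b (log2 fold change 0.80 ± 0.21 (SE), edgeR adjusted p = 0.00198), specific for cyclic AMP, also rose. All were low, with means of 2.45 to 4.03 CPM, 2.66 to 4.67 CPM and 0.636 to 1.09 CPM. Each kept its call with the trend covariates and with counts summed per set. Of the exon length of Pde2a, 64.3% is shared with Gm45837 on the same strand, so its count is uncertain. Pde3a rose too, near 1 CPM (log2 fold change 0.59 ± 0.24 (SE), edgeR adjusted p = 0.0318), but lost the call with counts summed per set (edgeR adjusted p = 0.0946) and on leaving out any 1 of C1, C2, C4, C5, V2, V3 or V7 (log2 fold changes of 0.49 to 0.55).

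Pde1c, activated by calcium and calmodulin, had values that varied by set. It ranged from 9.72 to 14.5 CPM (median 12.0) in the control libraries and from 7.83 to 31.7 CPM (median 15.2) in the verapamil libraries, and the mean went from 12.2 ± 1.60 CPM (SD, n = 12) in control to 18.7 ± 8.35 CPM (SD, n = 12) with verapamil (log2 fold change 0.62 ± 0.19 (SE), edgeR adjusted p = 0.00664). In sets 1 and 4 the verapamil means were 28.3 and 21.3 CPM against 12.4 and 11.9 CPM in control, whereas in sets 2 and 3 they were 13.1 and 12.1 CPM against 12.5 and 12.0 CPM. The interaction of set and treatment did not pass the adjusted threshold (edgeR adjusted p = 0.0953). In sets 2 and 3 the GC trend of the verapamil libraries was steepest, and Pde1c has a GC content of 42.9%. With the trend covariates the log2 fold change was 1.37 (edgeR adjusted p = 8.35e-13), and with counts summed per set the call was lost (edgeR adjusted p = 0.0750). Its relative Pde1b did not pass, at 0.0017 (edgeR adjusted p = 0.985).

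**Figure D2:**
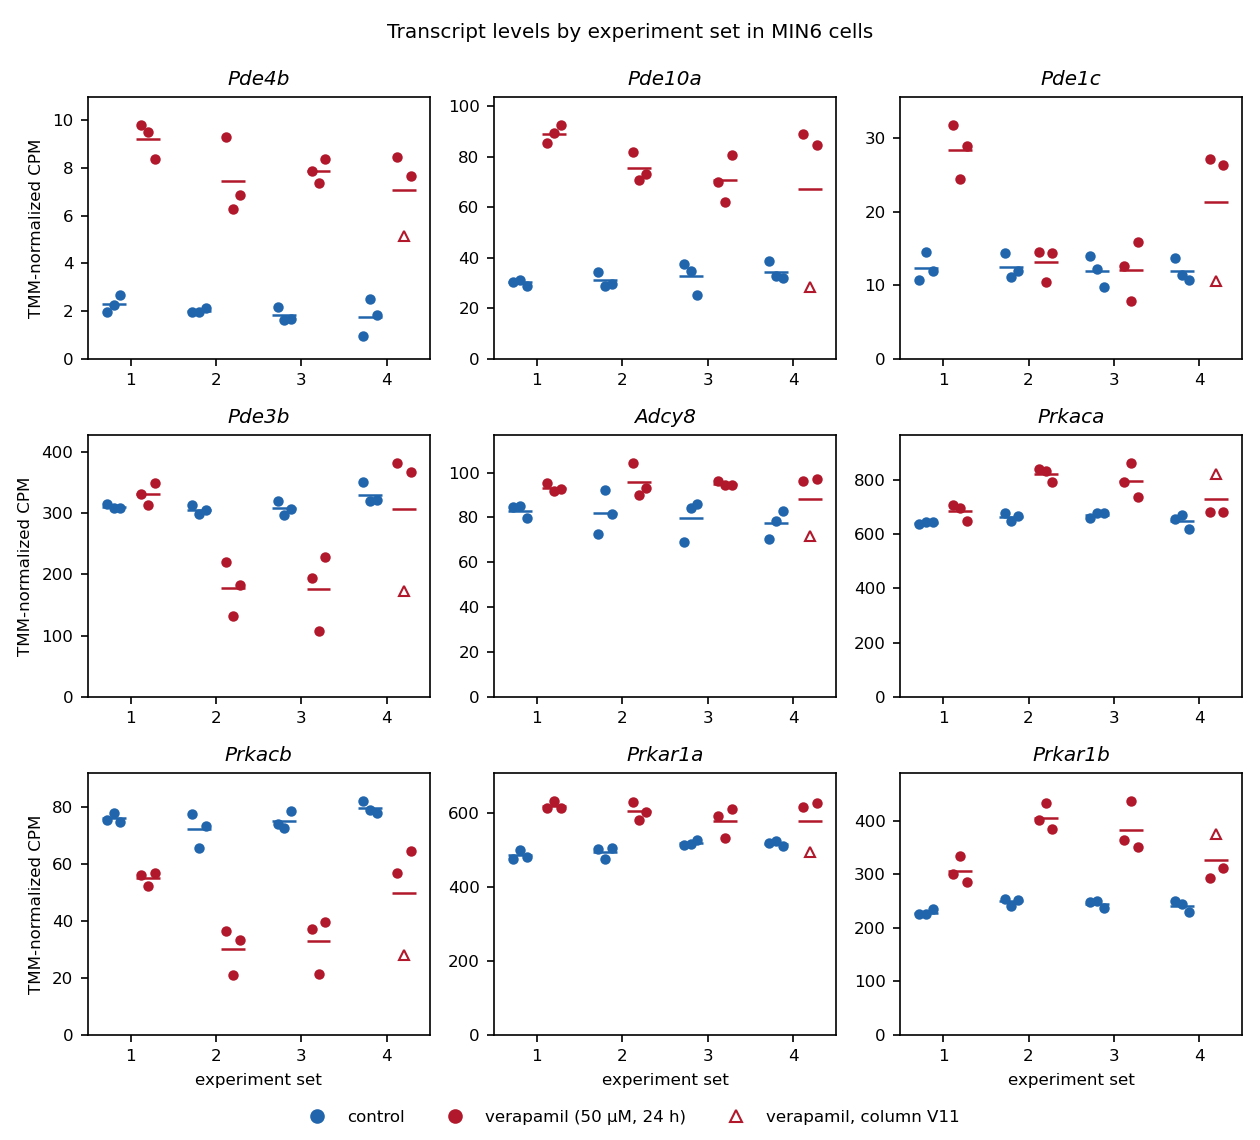
TMM-normalized CPM of 9 genes in every library by experiment set (x axis; blue control, red verapamil, horizontal lines the mean of 3 libraries, open triangle the verapamil library in column V11). Pde4b, Prkar1b and Prkacb separate the groups in every set, whereas the mean of Pde1c was higher in sets 1 and 4 and Pde3b was lower in sets 2 and 3 and in V11.

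Pde3b, the phosphodiesterase best known for lowering cyclic AMP in β-cells, was the most abundant of the 16 per kilobase. It ranged from 296 to 350.3 CPM (median 311) in the control libraries and from 107 to 381 CPM (median 224) in the verapamil libraries. The groups overlapped, 7 verapamil libraries lying below and 2 above every control, and the mean difference did not pass the test (log2 fold change -0.34 ± 0.16 (SE), edgeR adjusted p = 0.0696). By set the log2 difference was 0.092, -0.81, -0.87 and -0.19: the verapamil libraries of sets 2 and 3 and V11 lay between 107 and 228 CPM, and the other 5 between 313 and 381 CPM. With the trend covariates the sign turned, to 0.35 (edgeR adjusted p = 6.37e-08), and without any 1 of the verapamil libraries V1, V2, V3, V10 or V12 the decrease passed, with log2 fold changes of -0.38 to -0.41. With the experiment set as a block the decrease also passed (-0.40, edgeR adjusted p = 0.0182), and with counts summed per set it did not (edgeR adjusted p = 0.223). The direction of Pde3b thus depended on the trend covariates, and its call on the block and on single libraries.

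The decreases in this family were those of Pde5a, Pde7a and Pde4d. Pde5a, a cyclic GMP-specific enzyme, was near 1 CPM and ranged from 0.843 to 2.00 CPM (median 1.18) in the control libraries and from 0.120 to 0.974 CPM (median 0.511) in the verapamil libraries (log2 fold change -1.28 ± 0.22 (SE), edgeR adjusted p = 3.50e-05). Of its verapamil libraries 11 lay below every control, with as few as 3 counts. It was -0.77 with the trend covariates (edgeR adjusted p = 0.0231) and lost the call when the experiment set was added as a block to that fit (edgeR adjusted p = 0.0539). Pde7a (log2 fold change -0.46 ± 0.13 (SE), edgeR adjusted p = 0.00355) and Pde4d (log2 fold change -0.42 ± 0.14 (SE), edgeR adjusted p = 0.0118), both cyclic AMP-specific, fell in the fit without covariates but had log2 fold changes of 0.049 and 0.17 with the trend covariates, where Pde4d was called higher (edgeR adjusted p = 0.0272). Both lost the call with counts summed per set (edgeR adjusted p = 0.0550 and 0.0634). Pde8b (log2 fold change -0.22 ± 0.11 (SE), edgeR adjusted p = 0.0926), Pde8a, Pde4c, Pde9a and Pde1b did not pass. Without control library C3 the decrease of Pde8b passed (log2 fold change -0.26, edgeR adjusted p = 0.0444).

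By the substrate of the enzyme, 4 of the 6 genes of families 1, 2, 3 and 10, which hydrolyze both nucleotides, were higher and none lower (backgrounds 31.2% and 31.6% of all genes). Of these, 1, Pde3b, was lower at an unadjusted p under 0.05 in edgeR, and none by DESeq2. With the trend covariates 5 of the 6 were higher, Pde3b among them (background 21.1%). Pde1b was lower in that fit (-0.23, edgeR adjusted p = 0.00309, background 14.1%). Of the 8 cyclic AMP-specific genes (families 4, 7 and 8) 3 were higher and 2 lower, near the backgrounds of 31.2% and 31.6%. Of the 2 cyclic GMP-specific genes (families 5 and 9) Pde5a was lower. In terms of level per kilobase, Pde3b went from 64.5% ± 1.30 (SD, n = 12) to 52.5% ± 8.76 (SD, n = 12) of the summed level of the 16 genes, and Pde10a from 4.67% ± 0.410 (SD, n = 12) to 11.9% ± 2.35 (SD, n = 12). The share of Pde10a was above every control in all 12 verapamil libraries. A share also depends on the other genes of the sum. In V11, Pde10a itself lay at 28.4 CPM, within the control range, while Pde3b lay at 173 CPM, below every control. Pde4b went from 0.352% ± 0.0827 (SD, n = 12) to 1.54% ± 0.288 (SD, n = 12) and Pde4d from 5.30% ± 0.328 (SD, n = 12) to 4.11% ± 0.489 (SD, n = 12). The summed level of the family was 53.4 ± 2.37 (SD, n = 12) to 50.3 ± 12.3 (SD, n = 12) CPM per kilobase, with verapamil libraries on both sides of the control range.

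**Figure D3:**
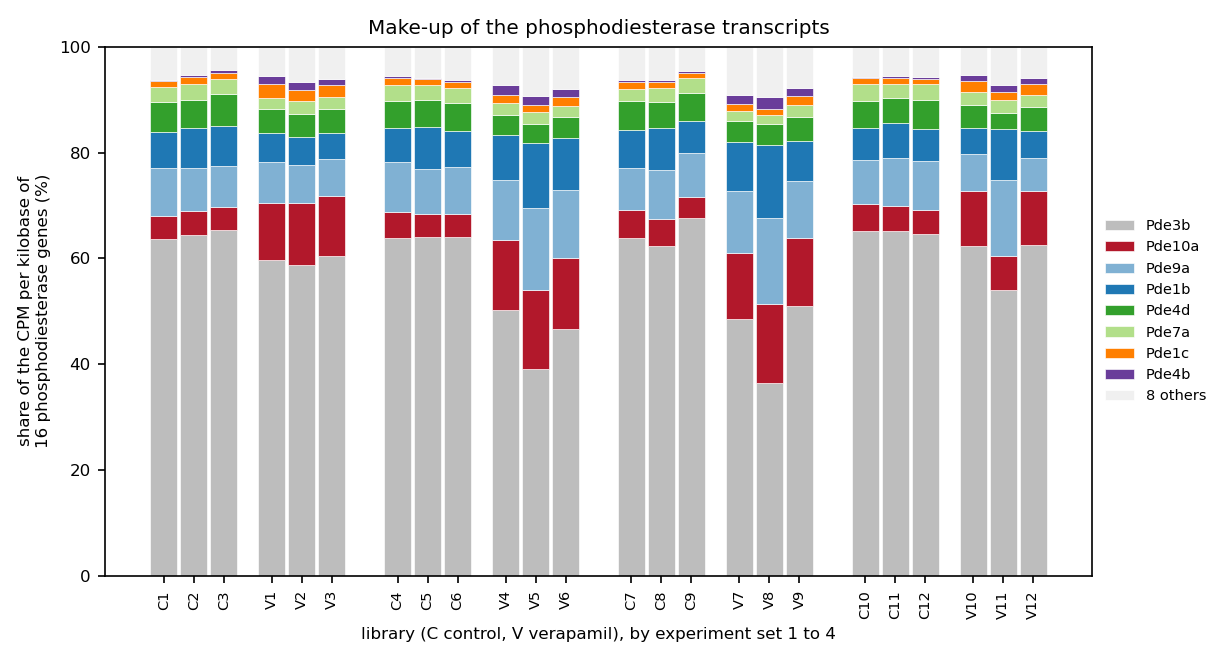
Share of each phosphodiesterase in the summed CPM per kilobase of the 16 genes (y axis, percent) in each library, ordered by experiment set with the 3 control libraries of a set before its 3 verapamil libraries. Pde10a (dark red) took 3.97% to 5.32% in control and 6.32% to 14.9% with verapamil, and Pde3b (grey) took 62.3% to 67.7% in control and 36.4% to 62.5% with verapamil.

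Of the 2 other genes with a Pde symbol, neither codes for an active phosphodiesterase. Pde6d, a chaperone that shuttles prenylated proteins between membranes, rose (log2 fold change 0.40 ± 0.080 (SE), edgeR adjusted p = 1.86e-04), although its log2 difference was 0.025 in set 1 and 0.050 with the trend covariates. Pde4dip, the centrosome and Golgi protein myomegalin, did not pass (log2 fold change -0.048 ± 0.10 (SE), edgeR adjusted p = 0.683).

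Without covariates, 1 catalytic subunit of PKA rose and 1 fell, and 2 of the 4 regulatory subunits rose and 1 fell (backgrounds 31.2% and 31.6% of all genes). Prkaca, the main catalytic subunit here, ranged from 619 to 678 CPM (median 659) in the control libraries and from 648 to 861 CPM (median 764) in the verapamil libraries, with 11 verapamil libraries above every control. The mean went from 656 ± 18.4 CPM (SD, n = 12) in control to 758 ± 73.9 CPM (SD, n = 12) with verapamil (log2 fold change 0.21 ± 0.045 (SE), edgeR adjusted p = 3.89e-04). The direction held in each of the 4 sets, with log2 differences of 0.091, 0.31, 0.24 and 0.16, but the value was 0.024 with the trend covariates and -0.019 after each library was corrected for its GC and length trend, and the call was lost in both fits (edgeR adjusted p = 0.587 and 0.573).

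Prkacb, the other catalytic subunit, ranged from 65.7 to 82.0 CPM (median 76.6) in the control libraries and from 20.9 to 64.8 CPM (median 38.6) in the verapamil libraries without overlap between the groups. Its mean went from 75.7 ± 4.15 CPM (SD, n = 12) in control to 42.0 ± 15.0 CPM (SD, n = 12) with verapamil (log2 fold change -0.85 ± 0.15 (SE), edgeR adjusted p = 4.29e-05). The decrease was deepest in sets 2 and 3, at -0.47, -1.29, -1.24 and -0.76 by set, and remained called at -0.21 with the trend covariates (edgeR adjusted p = 0.00472), at -0.83 with counts summed per set (edgeR adjusted p = 0.0106) and at -0.45 in sets 1 and 4 without V11 (edgeR adjusted p = 1.31e-05). Per kilobase, Prkacb was a minor part of the catalytic subunit RNA throughout, going from 3.17% ± 0.187 (SD, n = 12) to 1.60% ± 0.692 (SD, n = 12), and the sum of both subunits went from 272 ± 7.44 (SD, n = 12) to 309 ± 28.1 (SD, n = 12) CPM per kilobase.

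Both type I regulatory subunits rose. Of the exon length of Prkar1b, 8.95% is shared with another gene on the same strand. Prkar1b ranged from 225 to 255 CPM (median 243) in the control libraries and from 285 to 436 CPM (median 357) in the verapamil libraries, again without overlap, and its mean went from 241 ± 10.6 CPM (SD, n = 12) in control to 356 ± 52.2 CPM (SD, n = 12) with verapamil (log2 fold change 0.56 ± 0.064 (SE), edgeR adjusted p = 9.77e-08). The log2 difference was 0.42, 0.70, 0.64 and 0.43 in the 4 sets and 0.28 with the trend covariates (edgeR adjusted p = 3.75e-07). Prkar1a, the most abundant regulatory subunit per kilobase, ranged from 477 to 528 CPM (median 508) in the control libraries and from 496 to 632 CPM (median 613) in the verapamil libraries. In 11 verapamil libraries, all but V11, it lay above every control, and the mean went from 505 ± 18.0 CPM (SD, n = 12) in control to 596 ± 41.7 CPM (SD, n = 12) with verapamil (log2 fold change 0.24 ± 0.038 (SE), edgeR adjusted p = 1.18e-05). It was 0.34 with the trend covariates (edgeR adjusted p = 4.51e-09) and 0.35, 0.29, 0.15 and 0.15 by set.

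The type II regulatory subunits, which bind most anchoring proteins more tightly, did not rise in the fit without covariates. Prkar2b ranged from 18.9 to 22.9 CPM (median 20.9) in the control libraries and from 8.05 to 24.7 CPM (median 14.8) in the verapamil libraries and fell (log2 fold change -0.44 ± 0.15 (SE), edgeR adjusted p = 0.0132), with 7 verapamil libraries below and 1 above every control, and the sign turned with the trend covariates (0.12, edgeR adjusted p = 0.310). Prkar2a did not pass (log2 fold change -0.18 ± 0.11 (SE), edgeR adjusted p = 0.163) and was higher with the trend covariates (0.27, edgeR adjusted p = 0.00141). The summed level of the 4 regulatory genes went from 194 ± 5.87 (SD, n = 12) to 243 ± 10.9 (SD, n = 12) CPM per kilobase, above every control in all 12 verapamil libraries. Within it the share of Prkar1b went from 32.6% ± 0.950 (SD, n = 12) to 38.4% ± 5.01 (SD, n = 12) and that of Prkar2b from 2.95% ± 0.264 (SD, n = 12) to 1.75% ± 0.648 (SD, n = 12).

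Of the PKA inhibitors, small proteins that block the free catalytic subunit, Pkia fell and Pkig did not pass. Pkia ranged from 5.42 to 8.09 CPM (median 6.71) in the control libraries and from 1.39 to 6.15 CPM (median 2.73) in the verapamil libraries (log2 fold change -0.98 ± 0.19 (SE), edgeR adjusted p = 1.32e-04), with 10 verapamil libraries below every control. Its log2 difference was -0.56, -1.77, -1.38 and -0.70 by set, and with the trend covariates it was -0.26 and no longer called (edgeR adjusted p = 0.117), but with the experiment set as a block in that fit it was called at -0.32 (edgeR adjusted p = 0.0314). Pkig, the more abundant inhibitor, was at 26.9 to 28.5 CPM (log2 fold change 0.082 ± 0.10 (SE), edgeR adjusted p = 0.483) and was lower with the trend covariates (-0.27, edgeR adjusted p = 0.0253).

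Because PKA acts on transcription through the cyclic AMP response element (CRE), the promoter windows of these genes, from 250 bases before to 50 bases after a transcription start in RefSeq (GRCm38.p6), were searched for the palindrome TGACGTCA and for its core TGACG, on both strands. The core is contained in each palindrome. Windows were found for 38 of the 46 genes, 78 in all. The palindrome was in 2 windows, both of Prkar1a, where 3.08% of the 10746 windows of all genes tested held it. These 2 windows overlap and hold the same site. By gene, the palindrome was in 1 of 38 (2.63%), against 3.74% of all genes. At least 1 core was in 17 windows (21.8%), against 31.6% of all windows. Counted by gene, 15 of 38 genes (39.5%) had a core in a window, against 37.3% of all genes. The windows below are examples with a core, 1 each for 3 PKA subunits and for the phosphodiesterase with the largest increase, written 5′ to 3′ in lower case with TGACG, its reverse complement CGTCA and the palindrome in capitals. The Prkar1a window is chr11:109650699-109650998 on the plus strand, that of Prkaca chr8:83972728-83973027 on the plus strand, that of Prkacb chr3:146812897-146813196 on the minus strand and that of Pde4b chr4:102421305-102421604 on the plus strand.
Prkar1a: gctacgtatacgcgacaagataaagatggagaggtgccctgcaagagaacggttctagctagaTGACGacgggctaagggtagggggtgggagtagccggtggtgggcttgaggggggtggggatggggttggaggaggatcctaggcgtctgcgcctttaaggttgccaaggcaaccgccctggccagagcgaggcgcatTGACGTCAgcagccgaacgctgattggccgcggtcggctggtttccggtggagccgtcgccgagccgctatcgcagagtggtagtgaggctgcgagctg
Prkaca: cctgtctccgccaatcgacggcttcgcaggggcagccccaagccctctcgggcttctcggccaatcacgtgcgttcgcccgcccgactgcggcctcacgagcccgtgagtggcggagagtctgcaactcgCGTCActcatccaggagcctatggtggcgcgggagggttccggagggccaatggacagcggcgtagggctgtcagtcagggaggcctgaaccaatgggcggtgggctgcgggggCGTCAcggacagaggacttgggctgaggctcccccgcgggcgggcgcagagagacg
Prkacb: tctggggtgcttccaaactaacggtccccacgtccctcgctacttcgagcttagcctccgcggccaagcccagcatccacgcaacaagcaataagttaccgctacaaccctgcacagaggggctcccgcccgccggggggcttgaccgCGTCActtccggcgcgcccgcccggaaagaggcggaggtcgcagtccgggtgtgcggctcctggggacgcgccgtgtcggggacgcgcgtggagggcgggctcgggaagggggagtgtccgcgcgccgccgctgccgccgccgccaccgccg
Pde4b: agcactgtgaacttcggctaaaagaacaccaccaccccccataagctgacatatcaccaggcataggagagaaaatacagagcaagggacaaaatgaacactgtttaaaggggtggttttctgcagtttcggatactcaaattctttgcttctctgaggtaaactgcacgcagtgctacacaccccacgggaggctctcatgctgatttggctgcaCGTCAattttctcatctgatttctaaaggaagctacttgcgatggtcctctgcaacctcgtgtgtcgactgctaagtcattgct
In the Prkar1a window the palindrome starts 49 bases before the transcription start. The Prkaca window holds 2 cores and the Prkacb and Pde4b windows 1 each, while the other windows of these 3 genes, 1, 2 and 3 in number, hold none. Of the 6 Prkar1a windows 3 hold no core. Prkar1b has a core in 1 of 5 windows and Pde10a in none of 2. A match describes the letters of a window, not binding.

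The anchoring proteins were lower for 6 of 10 genes and higher for 1 in the fit without covariates (backgrounds 31.6% and 31.2% of all genes). With the trend covariates none was lower, also at an unadjusted p under 0.05 in edgeR, and 2 were higher, Akap10 and Akap12 (backgrounds 14.1% and 21.1%). After correction of each library for its GC and length trend, 4 were lower and none higher (backgrounds 25.7% and 31.2%). The largest decreases were those of Akap9, a scaffold of the Golgi and centrosome, of Akap17b and of Akap11, which also binds the kinase GSK3. Akap9 ranged from 22.3 to 31.1 CPM (median 25.9) in the control libraries and from 3.19 to 30.3 CPM (median 7.24) in the verapamil libraries (log2 fold change -1.10 ± 0.31 (SE), edgeR adjusted p = 0.00349), with 9 verapamil libraries below every control. Its log2 difference was -0.82, -2.1, -2.14 and -0.94 by set and 0.016 with the trend covariates, and with counts summed per set the call was lost (edgeR adjusted p = 0.0663). Akap17b ranged from 15.4 to 18.8 CPM (median 17.6) in the control libraries and from 2.52 to 15.8 CPM (median 5.55) in the verapamil libraries (log2 fold change -1.09 ± 0.26 (SE), edgeR adjusted p = 9.02e-04) and Akap11 from 20.6 to 29.4 CPM (median 24.1) in the control libraries and from 3.60 to 26.8 CPM (median 9.51) in the verapamil libraries (log2 fold change -0.87 ± 0.25 (SE), edgeR adjusted p = 0.00454). For both, the log2 difference was larger in sets 2 and 3, at -0.59, -2.16, -1.97 and -0.78 for Akap17b and -0.29, -1.84, -1.78 and -0.58 for Akap11, and the trend covariates left -0.10 and 0.091. With counts summed per set Akap11 lost its call (edgeR adjusted p = 0.0890) and Akap17b kept it (edgeR adjusted p = 0.0483). In set 4, V11 lay at 4.23 CPM for Akap17b and 9.49 CPM for Akap11, as low as libraries of sets 2 and 3. All 3 have transcripts of 41.9% to 44.8% GC.

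Smaller decreases were those of Akap13, also a guanine nucleotide exchange factor (log2 fold change -0.47 ± 0.16 (SE), edgeR adjusted p = 0.0130), Akap7, found at the plasma membrane (log2 fold change -0.41 ± 0.10 (SE), edgeR adjusted p = 0.00125), and the nuclear Akap8l (log2 fold change -0.22 ± 0.062 (SE), edgeR adjusted p = 0.00359), at 119 to 86.3 CPM, 5.09 to 3.81 CPM and 109 to 93.4 CPM. For Akap13, library V11 was at 21.3 CPM. Nuclear Akap8 did not pass (log2 fold change -0.33 ± 0.15 (SE), edgeR adjusted p = 0.0593) nor with counts summed per set (edgeR adjusted p = 0.202), but its decrease passed by DESeq2 (adjusted p = 0.0468), with the experiment set as a block (-0.36, edgeR adjusted p = 0.0151) and without any 1 of C8, C9, V1, V3, V9, V10 or V11 (-0.35 to -0.39). Akap1, which tethers PKA to the outer mitochondrial membrane and was the most abundant of the family per kilobase, ranged from 102 to 128 CPM (median 109) in the control libraries and from 104 to 130.3 CPM (median 117) in the verapamil libraries (log2 fold change 0.10 ± 0.041 (SE), edgeR adjusted p = 0.0374). Its groups overlapped in 11 verapamil libraries. The call was lost on leaving out any of 11 single libraries, and the sign turned after correction for the GC and length trends (-0.029). Akap12, a plasma membrane scaffold, did not pass (log2 fold change 0.25 ± 0.18 (SE), edgeR adjusted p = 0.232) and was higher with the trend covariates (0.71, edgeR adjusted p = 0.00374). Akap10 did not pass either (log2 fold change -0.20 ± 0.10 (SE), edgeR adjusted p = 0.0950), was lower without V1 or without V10 (-0.24 each), and was called higher with the trend covariates (0.23, edgeR adjusted p = 0.00391). The summed level of the family went from 69.8 ± 3.76 (SD, n = 12) to 62.2 ± 6.63 (SD, n = 12) CPM per kilobase.

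Of the 5 Rap exchange factors, 4 were lower and 1 was higher without covariates (backgrounds 31.6% and 31.2% of all genes). With the trend covariates none was called in either direction, also at an unadjusted p under 0.05 in edgeR (backgrounds 14.1% and 21.1%). With the experiment set as a block in that fit, Rapgef1 was called higher (0.14, edgeR adjusted p = 0.00741). After correction of each library for its GC and length trend, 3 were lower and 1 higher (backgrounds 25.7% and 31.2%). Rapgef4, the cyclic AMP sensor Epac2 that acts in granule exocytosis, ranged from 15.9 to 20.4 CPM (median 17.0) in the control libraries and from 6.42 to 15.6 CPM (median 10.8) in the verapamil libraries. The groups did not overlap, and the mean went from 17.5 ± 1.49 CPM (SD, n = 12) in control to 11.3 ± 3.51 CPM (SD, n = 12) with verapamil (log2 fold change -0.63 ± 0.13 (SE), edgeR adjusted p = 2.93e-04). The decrease passed within sets 2 and 3 but not within set 1 or set 4, with log2 differences of -0.13, -0.93, -1.12 and -0.59 by set. It was -0.24 in sets 1 and 4 without V11 (edgeR adjusted p = 0.00927). With the trend covariates it was -0.091 (edgeR adjusted p = 0.411). Rapgef6 (log2 fold change -0.93 ± 0.23 (SE), edgeR adjusted p = 0.00110), Rapgef5 (log2 fold change -0.67 ± 0.17 (SE), edgeR adjusted p = 0.00130) and Rapgef2 (log2 fold change -0.45 ± 0.11 (SE), edgeR adjusted p = 0.00128), exchange factors that are not the classical cyclic AMP sensors, were at 37.3 to 19.5 CPM, 11.5 to 7.20 CPM and 61.4 to 44.8 CPM. With the trend covariates these values were -0.014, -0.075 and 0.012. Rapgef1, an exchange factor recruited by Crk adaptors, rose slightly (log2 fold change 0.18 ± 0.066 (SE), edgeR adjusted p = 0.0218) and held 68.0% ± 1.80 (SD, n = 12) to 78.8% ± 6.50 (SD, n = 12) of the family's level per kilobase.

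The direction was shared by all 4 experiment sets for 10 genes upward (background 29.7% of all genes) and 18 genes downward (background 30.2%). The difference of the effect between sets passed the interaction test for Akap17b and Akap11 (background 9.72% of genes). Within single sets, 10, 10 and 6 genes were called higher in sets 1, 2 and 3 (backgrounds 13.7%, 26.3% and 19.9%) and 8, 18 and 14 lower (backgrounds 14%, 30.9% and 23.4%). Set 4 gave no call in either direction with V11 (backgrounds 0.317% and 0.0894%) and 7 higher and 2 lower without it (backgrounds 6.01% and 6.17%), an alternative chosen after the data were seen. At an unadjusted p under 0.05, edgeR gave 4 higher and 1 lower in set 4 with V11.

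**Figure D4:**
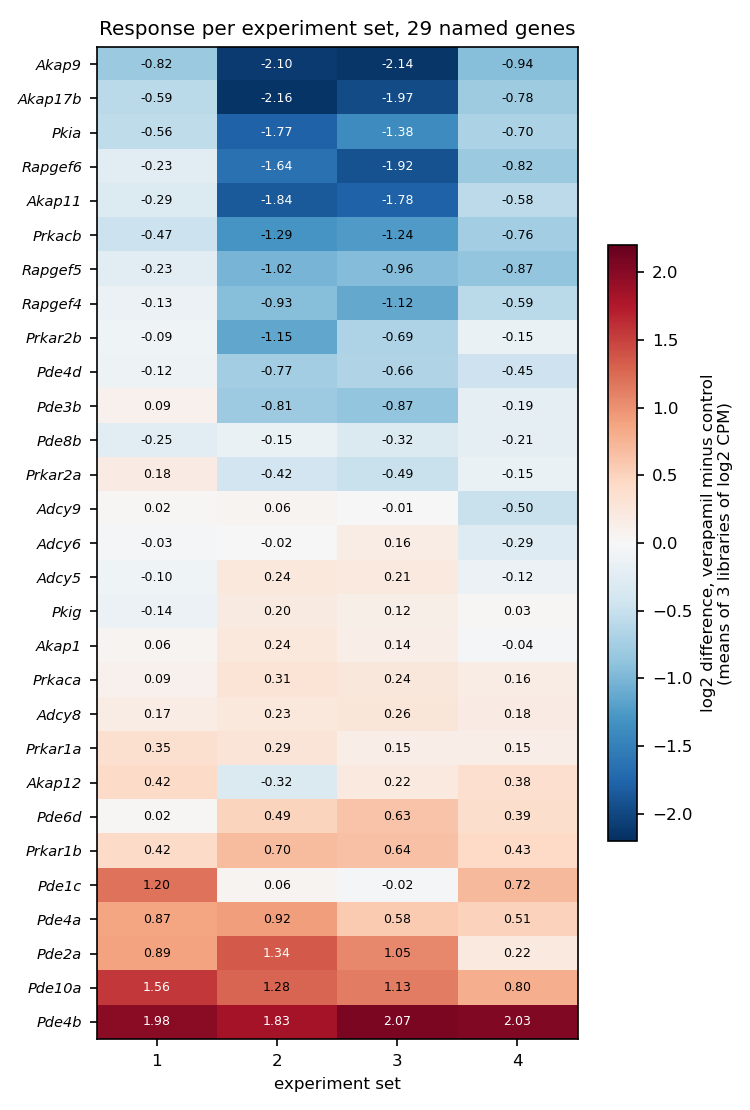
Log2 difference of verapamil minus control (means of 3 libraries of log2 CPM) for 29 genes in each of the 4 experiment sets, ordered by the fold change over all libraries; red is higher and blue lower with verapamil. The values of Pde4b stay between 1.83 and 2.07, while those of Akap17b run from -0.59 in set 1 to -2.16 in set 2.

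Among the 46 genes, the log2 fold change and the GC content of the transcript had a Pearson's r of 0.33, against 0.48 over 12304 genes. The median GC content was 51.3% for the genes that were higher, 45.1% for those that were lower and 52.3% for those that did not pass. Among the 3076 genes with the lowest GC content, up to 45.2%, the median log2 fold change was -0.45. Of the 12 genes of this group that fall there, 8 were lower and 3 higher, where 62.7% and 8.62% of those 3076 genes were. Those 3 increases, of Pde7b, Pde1c and Pde3a, run against the median there, and Pde4b, Prkar1a and Pde10a rose among the 3077 genes next in GC content, up to 49.8%, whose median was -0.092. Of the 14 increases and 16 decreases, 12 and 11 were still called after correction for the trends. With counts summed per set 10 and 10 were, and in sets 1 and 4 without V11 10 and 9. Over all 46 genes, the correction gave 13 higher and 11 lower (backgrounds 31.2% and 25.7% of all genes). The summed counts gave 10 and 10 (backgrounds 24.4% and 17.3%). Sets 1 and 4 without V11 gave 12 and 11 (backgrounds 18.2% and 18.8%). Called in the same direction without covariates, with the trend covariates, after correction and with the summed counts were Prkar1a, Prkar1b, Adcy8, Pde4a, Pde2a, Pde7b, Pde10a and Pde4b upward and Prkacb and Pde5a downward. With the experiment set as a block beside the covariates, the decreases that kept their call were those of Prkacb and Pkia, and that of Pde5a did not.

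**Figure D5:**
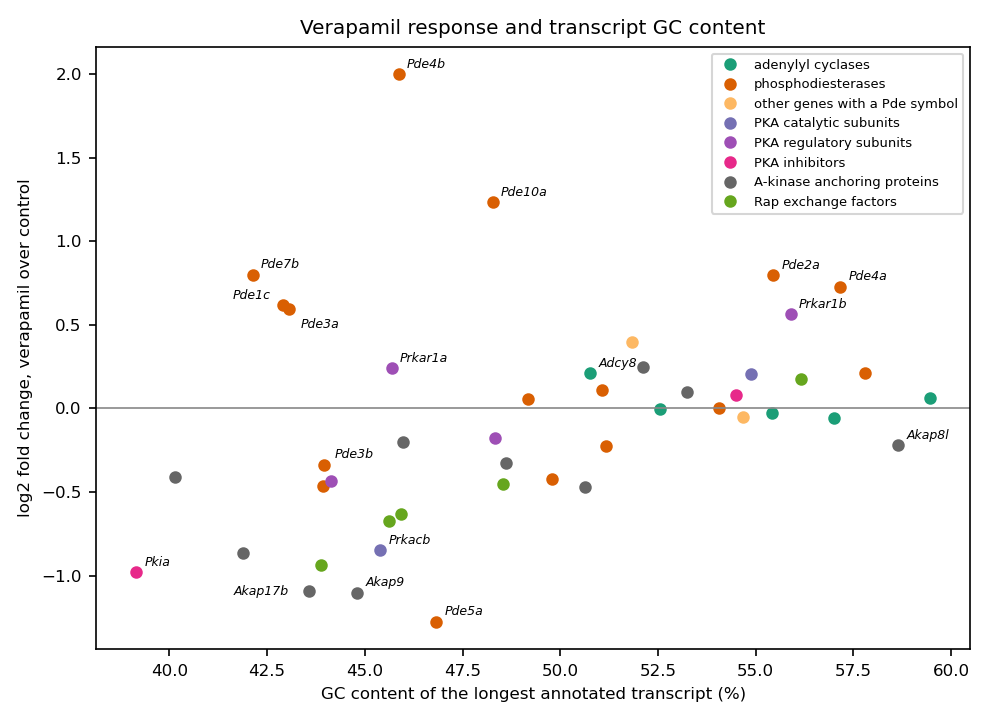
Log2 fold change (verapamil over control, fit without covariates) against the GC content of the longest annotated transcript for the 46 genes, colored by family. Decreases lie at or below 50.6% GC except for Akap8l at 58.6%, while Pde4b, Pde10a, Pde7b, Pde1c, Pde3a and Prkar1a rose from the same range.

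Other genes of the pathway were counted in lists chosen by function. Of 7 G protein genes, 2 were higher and 4 lower (backgrounds 31.2% and 31.6% of all genes). Gnas, the stimulatory subunit that activates cyclases, went from 13556 to 18809 CPM, log2 fold change 0.47 ± 0.051 (SE), edgeR adjusted p = 5.01e-08. Its 12 verapamil libraries lay above every control. Gnas is counted per gene, so its different transcripts were not separated. The inhibitory subunit Gnai2 went from 1363 to 1648 CPM, log2 fold change 0.27 ± 0.051 (SE), edgeR adjusted p = 8.65e-05, and Gnai1 (log2 fold change -0.61) and Gnai3 (-0.56) fell. Under the trend covariates Gnas kept its call at 0.26, Gnai2 lost it at 0.052 (edgeR adjusted p = 0.232), as did Gnai1 at -0.068 (edgeR adjusted p = 0.811), and Gnai3 was called higher at 0.13 (edgeR adjusted p = 0.0232).

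Of 19 Gs- and Gi-coupled receptors, 7 were higher (background 31.2%), 5 lower (background 31.6%) and 7 did not pass. Drd2, the inhibitory dopamine receptor, went from 69.5 to 139 CPM, log2 fold change 1.00 ± 0.068 (SE), edgeR adjusted p = 1.05e-11, without overlap of the groups. The VIP receptor Vipr1 fell (log2 fold change -0.59). The GLP-1 receptor Glp1r, named after its values were seen, went from 70.8 to 98.6 CPM, log2 fold change 0.48 ± 0.051 (SE), edgeR adjusted p = 4.49e-08 and kept 0.50 with the trend covariates. The GIP receptor Gipr went from 16.8 to 10.5 CPM, log2 fold change -0.67 ± 0.13 (SE), edgeR adjusted p = 1.23e-04, and the cannabinoid receptor Cnr1 from 1.38 to 0.635 CPM, log2 fold change -1.09 ± 0.20 (SE), edgeR adjusted p = 8.20e-05. Both lost the call with the trend covariates, at -0.30 (edgeR adjusted p = 0.0666) and -0.51 (edgeR adjusted p = 0.0674), while Drd2 at 0.83 and Vipr1 at -0.49 kept it.

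Of 16 genes of the CREB family, its coactivators, the SIK kinases that restrain them and known CREB targets, 7 were higher and 4 lower. The backgrounds were 31.2% and 31.6%. Crem, which includes the repressor ICER that cyclic AMP induces, went from 25.3 to 68.9 CPM, log2 fold change 1.44 ± 0.061 (SE), edgeR adjusted p = 6.83e-16, with every verapamil library above every control. Sik1, a CREB target and feedback kinase, went from 1.36 to 4.24 CPM, log2 fold change 1.62 ± 0.17 (SE), edgeR adjusted p = 3.48e-08, and Irs2, a CREB target in β-cells, from 203 to 351 CPM, log2 fold change 0.79 ± 0.077 (SE), edgeR adjusted p = 8.65e-09. Nr4a1, an immediate-early CREB target below 1 CPM on average that was likewise named after its values were seen, went the other way, from 1.07 to 0.426 CPM, log2 fold change -1.31 ± 0.29 (SE), edgeR adjusted p = 4.40e-04. The factor Creb1 itself fell (log2 fold change -0.91), but was at -0.051 and not called under the trend covariates, where Crem, Sik1, Irs2 and Nr4a1 kept their calls. Crem is counted per gene, so its activator and repressor transcripts were not separated.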

How the data were processed

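The 12 verapamil and 12 control RNA-seq libraries were grouped by the treatment in their labels. For each gene the authors deposited the raw read count. Their notes and methods name HTSeq 0.9.1 for counting, HISAT2 2.1.0 for alignment to mm10 (GRCm38), Trimmomatic 0.39 for trimming and bcl2fastq 2.20. Strand setting and annotation release: not given in the sources used here. The paper names a stranded mRNA kit and the labels another kit, so reads of antisense pairs may not have been separated. Exons overlapping an antisense gene made up 8.92% of the length of Adcy6, 7.6% of Pde8b, 5.82% of Pde3a and 5.05% of Rapgef4. The authors also deposited columns of their own edgeR comparison, namely a mean log2 CPM, a p-value, an adjusted p-value with a log10 column, and a fold change given both as a ratio and in log2. None of these columns was used.

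Counts were compared with edgeR 4.0.16 in R 4.3.3 (filterByExpr with a minimum count of 10 and a minimum total of 15, TMM, glmQLFit and glmQLFTest without covariates, Benjamini-Hochberg adjustment over 12306 of 12310 genes, threshold 0.05). CPM are TMM-normalized, and a standard error is |log2 fold change| over the root of F. Log2 differences by set used log2 CPM with a prior count of 2. An interaction term tested whether the effect differed between experiment sets. For the trends, each library's deviations from the control mean were related to the GC content of the longest transcript and the exon length of each gene (GENCODE on GRCm38), and entered either as 2 covariates or as a smooth correction (5 spline degrees of freedom). Levels of different genes were compared per kilobase of merged exons. The test was checked on counts simulated with 200 changed genes but without experiment sets or GC and length trends. It recovered 93% of the log2 changes of size 1 and 66% of those of size 0.5, and 7% of its calls were false. Other tools were DESeq2 1.42.0, limma 3.58.1, Python 3.11.15, pandas 2.3.3, numpy 2.4.6 and matplotlib 3.10.9.

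Every one of the 132 pairs of libraries within a group differed by more than sampling noise (lowest ratio of chi-square to its degrees of freedom, 5.73). Depth was 12590476 to 44806556 counts per library, so values near 1 CPM, as for Pde3a, Pde5a and Pde7b, are the least precise. Alternatives were other size factors and filters, DESeq2's Wald test, blocks for experiment set and replicate number, counts summed per set, the 2 trend fits, subsets of experiment sets and leaving out each library. Alternatives without the library in column V11 were added after the data were seen. The genes and lists were chosen with earlier results of these data known. Named with values were the 8 largest increases and the 8 largest decreases with an adjusted p under 0.05 and a mean of at least 1 CPM, a list of 25 genes of interest, and examples of each family. Beyond the examples this rule allows, the other genes of each family were named after their values were seen. Of each other list, up to 4 genes past the threshold that averaged 1 CPM or more were named by size of change; Glp1r, Nr4a1 and Npr1 lie outside this rule. One gene of these other lists is not reported here.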

Additional observations from a re-analysis of the deposited data

Results flagged for a closer look

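The verapamil effect on 2 anchoring proteins differed between experiment sets by a test of that difference. For Akap17b the interaction of set and treatment had an adjusted p of 0.0406 and for Akap11 of 0.0344 (edgeR's quasi-likelihood test, Benjamini-Hochberg adjustment), where 9.72% of all genes passed. Mean levels of Akap17b with verapamil were 12.4, 3.81, 4.54 and 11.8 CPM in sets 1, 2, 3 and 4, against 18.3, 17.1, 16.9 and 17.4 CPM in control. Those of Akap11 were 19.2, 6.78, 7.09 and 20.3 CPM with verapamil, against 23.0, 24.0, 22.8 and 27.7 CPM in control. The means were lowest in sets 2 and 3, although V11 in set 4 was at 4.23 CPM for Akap17b and 9.49 CPM for Akap11. In sets 2 and 3 the mean r of the verapamil libraries with GC content was 0.54 and 0.55, against 0.19 and 0.16 in sets 1 and 4. Both transcripts are of low GC content, 43.6% and 41.9%. With the trend covariates the log2 fold changes were -0.10 (adjusted p = 0.387) and 0.091 (adjusted p = 0.344). Whether the sets still differ with the covariates was not tested.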

How the results depend on the processing

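Over the 46 settings tried for each of 29 named genes, 1163 of 1334 results were counted as kept, 125 lost the call, 19 gained it and 27 changed sign. Changes of sign in a gene that passed the threshold in neither fit counted as kept. Without V11, for example, Adcy6 (0.023) and Adcy9 (0.020) turned positive without passing. The count of genes called stayed within 1.5 times under the other normalization, filter and DESeq2 alternatives. In total, whichever genes they were, calls of higher genes went from 14 to 6 within set 3, 0 within set 4, 7 within set 4 without V11 and 7 in sets 1 and 4 together. Calls of lower genes went from 16 to 8 within set 1, 0 within set 4, 2 within set 4 without V11, 3 in sets 1 and 4, 10 with counts summed per set, and 4 with the trend covariates, also with the experiment set as a block or without V11. Leaving out 1 library gave 12 to 14 increases and 16 to 19 decreases, with medians of -0.055 to 0.019. Over all 46 genes, leaving out 1 library took the call from Akap1 (11 libraries) and Pde3a (7), and gave one to Akap8 (7), Pde3b (5), Akap10 (2), Pde8b (C3) and Pde9a (V12, log2 fold change 0.13). The changes of sign that were counted are as follows. With the trend covariates, alone, with the set as a block and without V11, it was 0.091, 0.045 and 0.14 for Akap11, 0.35, 0.34 and 0.37 for Pde3b, 0.17, 0.13 and 0.14 for Pde4d, -0.27, -0.28 and -0.27 for Pkig, 0.27, 0.32 and 0.23 for Prkar2a, and 0.12, 0.11 and 0.12 for Prkar2b. For Akap9 it was 0.016 alone and 0.0094 without V11. After GC and length correction Akap1 was at -0.029 and Prkaca at -0.019. Within set 4 Akap1 was at -0.045, and without V11 Akap9 was at 0.040, Pde4d at 0.022 and Prkar2b at 0.094. In sets 1 and 4 without V11 Prkar2a was at 0.17. The cause of these changes was not tested. The replicate number as a replicate block gave 13 increases and 18 decreases with a median of 0.0069 (backgrounds 29.7% and 31.8%), but the numbers only name libraries: the correlation of same-numbered libraries was -0.051 to 0.11 over 10 pairs, and in 0 of 10 was it the best. Limits are the unstated origin of the 3 replicates of a set, the single cell line and dose, the overlap of the GC trend with the treatment, the counts of genes near 1 CPM, and that only RNA was measured, not cyclic AMP or enzyme activity.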

Other observations

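Other genes that bind PKA or cyclic nucleotides also differed. The channel Hcn3, of the family gated by cyclic nucleotides, went from 49.2 to 78.2 CPM, log2 fold change 0.67 ± 0.061 (SE), edgeR adjusted p = 2.84e-09, with every verapamil library above every control. Hcn4, of the same family, went the other way, from 243 to 206 CPM, log2 fold change -0.24 ± 0.039 (SE), edgeR adjusted p = 1.97e-05. Of 4 genes of cyclic GMP synthesis, 3 were lower (background 31.6%) and the other, Npr1, did not pass. The receptor cyclase Gucy2c went from 7.36 to 4.06 CPM, log2 fold change -0.86 ± 0.10 (SE), edgeR adjusted p = 2.99e-07, without overlap of the groups.

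Of 17 proteins that bind PKA without an Akap symbol, 2 were higher and 8 lower (backgrounds 31.2% and 31.6%). The guanine nucleotide exchange factor Arhgef2 went from 19.3 to 36.1 CPM, log2 fold change 0.90 ± 0.10 (SE), edgeR adjusted p = 4.70e-08, without overlap of the groups. The scaffolds Map2, Arfgef1 and Synm fell, with log2 fold changes of -0.90, -0.77 and -0.97, and had -0.0025, 0.12 and -0.26 with the GC and length trends as covariates. Of 18 Rap proteins, Rap regulators and granule partners of Epac2, 3 were higher and 9 lower (backgrounds 31.2% and 31.6%). The active zone proteins Rims1, Pclo and Rims2 went from log2 fold changes of -0.75, -0.60 and -0.56 to -0.28, 0.072 and 0.19 with the covariates, a change of sign for Pclo and Rims2. The Rap protein Rap2c did likewise, from -0.65 to 0.13.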
